A study of Mus musculus with 6 samples.

Results

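The 9 RNAs described here were made from mitochondrial DNA in whole mouse kidney: the mRNAs mt-Nd1, mt-Nd2, mt-Nd4, mt-Nd5, mt-Nd6, mt-Cytb and mt-Co1, and the ribosomal RNAs mt-Rnr1 and mt-Rnr2. They were chosen by name, as the mitochondrial mRNAs with little or only partial nuclear copy sequence plus the 2 rRNAs, and all 9 were found by symbol among the 54146 genes of the count files. The study compared kidneys of 12-week-old mice of strain B6C3F1/J. In 3 libraries the genotype is labelled Tfam f/f, that is, a floxed Tfam gene and no Cre (the f/f-labelled libraries). In the other 3 it is labelled KspCre Tfam f/f, that is, the same floxed gene with a Cre transgene (the Cre-labelled libraries). That Cre is driven by the promoter of Ksp-cadherin, which is active in tubule epithelium, so other kidney cells keep the floxed gene intact. The RNA was selected for poly A+ transcripts and read strand-specifically as pairs of 150 bases. Whether the 3 libraries of a label stem from different animals is not said in the labels, and each p-value is set only against the spread among these libraries, which may be technical.

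Mitochondrial DNA is a small circle that is transcribed from both strands into long precursors. The precursors are cut, mostly at the tRNAs that lie between genes, into rRNAs, mRNAs and tRNAs. Of the 13 mRNAs, 12 share a coding strand with both rRNAs, and mt-Nd6 alone is coded on the other strand. TFAM, the protein encoded by Tfam, packages this DNA and helps the mitochondrial RNA polymerase to start on it. Proximal tubule cells of the kidney are rich in mitochondria.

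Tfam, the gene that Cre should delete, went against the labels. Tfam had 30.3, 33.6 and 23.2 CPM (read counts scaled per library size, with normalization factors) in the f/f-labelled libraries, and 63.1, 63.5 and 61.4 in the Cre-labelled ones. The groups did not overlap, and Tfam was 2.15-fold higher in the Cre-labelled libraries (log2 fold change 1.11, SE 0.14, edgeR adjusted p = 0.00107). Every direction below is therefore between labels, not between known genotypes. Total gene counts ranged from 19024208 to 34821537 in the f/f-labelled libraries and from 30348281 to 48899266 in the Cre-labelled ones. Kidney markers were present in all 6 libraries. The summed level of 20 proximal tubule markers was 15241, 23645 and 5616 CPM in f/f-labelled replicates 1, 2 and 3. It was 66108 to 69105 CPM in the Cre-labelled ones, with 17 of the 20 called higher there. Over all tested genes, 21.3% were called higher and 24.9% lower in the Cre-labelled libraries. Other tubule segments also differed. Of 9 thick ascending limb markers 5 were called higher there and 2 lower, of 9 intercalated cell markers 8 and 1. Of 7 distal and connecting tubule markers 4 were called higher and 1 lower. Of 8 principal cell markers 0 were called higher in the Cre-labelled libraries and 5 lower. Of 14 macrophage markers, 13 were called lower there, with summed levels of 165 to 189 CPM against 251 to 794. All 9 tubular injury markers were called lower there, with summed levels of 1022 to 1120 CPM against 3983 to 15677. Of 7 podocyte markers 4 were called higher there and 0 lower, of 5 red blood cell markers 4 and 0. Of 8 endothelial markers 1 was called higher and 0 lower. Of 9 fibroblast and myofibroblast markers 5 were called lower there and 0 higher, of 5 tested B cell markers 3 and 0. Of 7 T cell markers 2 were called lower and 0 higher, of 7 tested adipocyte markers 2 and 0. The part of these cell types in the results below was not tested, and in whole tissue fewer cells of a type and less RNA per cell cannot be told apart.

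All 9 mitochondrial RNAs were higher in the Cre-labelled libraries, by 3.41-fold to 5.03-fold. All 9 passed the edgeR quasi-likelihood test with Benjamini-Hochberg adjustment over 17308 genes (adjusted p from 0.00296 to 0.0177), and for all 9 the groups did not overlap. Over all tested genes, 46.2% were called, 21.3% higher and 24.9% lower in those libraries, and 29.8% were higher and 32.1% lower there without overlap. The median log2 fold change of the 9 was 2.04, against -0.03 over all tested genes. Without f/f-labelled replicate 1, 3 of the 9 passed (mt-Nd4, mt-Rnr1 and mt-Rnr2), while the log2 fold changes of the 9 were 1.68 (mt-Co1) to 2.13 (mt-Nd4) and their standard errors larger, with fewer libraries. The 9 RNAs together made up 3.30%, 5.76% and 2.42% of gene counts in f/f-labelled replicates 1, 2 and 3, and 11.2%, 11.15% and 11.2% in Cre-labelled replicates 1, 2 and 3. On average this was 3.83% ± 1.73 in the former and 11.2% ± 0.0338 in the latter (SD, n = 3 each; two-sided exact permutation p = 0.1, the smallest that 3 against 3 libraries allow).

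**Figure D1:**
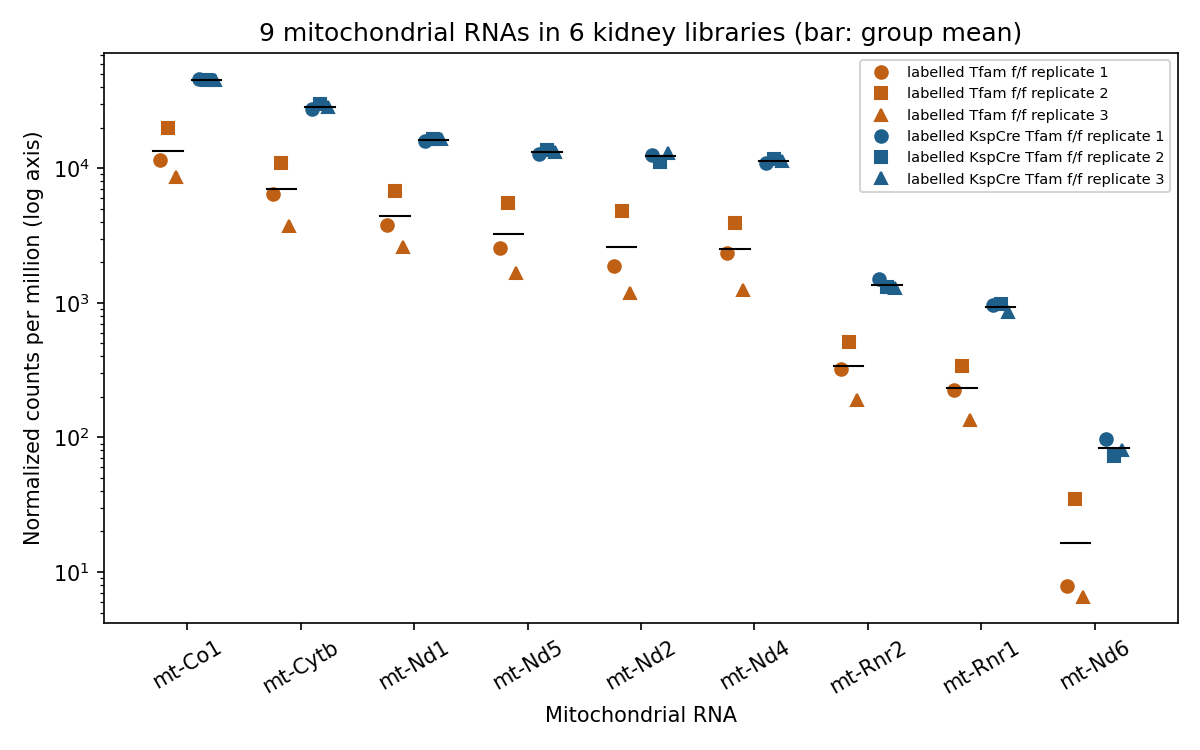
Normalized CPM (log axis) of the 9 mitochondrial RNAs in each library, with a bar at each group mean and one symbol shape per replicate number. In every RNA the 3 Cre-labelled libraries lie close together above the 3 f/f-labelled ones, among which replicate 2 is the highest and replicate 3 the lowest.

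The mRNA of mt-Co1, a catalytic core subunit of cytochrome c oxidase (complex IV), was the most abundant of the 9. Its gene lies on chromosome M from 5328 to 6872 in mm10, on the plus strand, as 1 exon. It had 11494, 20061 and 8606 normalized CPM in the f/f-labelled libraries and 46131, 45487 and 45188 in the Cre-labelled ones. The second group was nearly uniform, while in the first the highest library stood well above the other pair. The difference was 3.41-fold (log2 fold change 1.77, SE 0.47, edgeR adjusted p = 0.0177), the smallest of the 9, and the call was lost without f/f-labelled replicate 1 or any Cre-labelled library (adjusted p from 0.0582 to 0.108 there, in a range from 1.65e-08 over all alternatives). The log2 fold change in those 4 fits was 1.68 to 1.78. The mRNA of mt-Cytb, the cytochrome b subunit of complex III (chromosome M, 14145 to 15288, plus strand), had 6384, 10851 and 3709 normalized CPM in the f/f-labelled libraries. In the Cre-labelled ones it had 27640.4, 30120.0 and 28439, a 4.12-fold difference (log2 fold change 2.04, SE 0.48, edgeR adjusted p = 0.0113). The groups did not overlap, and the Cre-labelled libraries lay close together.

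The complex I subunits of the same strand moved by like amounts. All 4 encode core subunits of the membrane arm of NADH dehydrogenase, the entry point of electrons from NADH. The mRNA of mt-Nd1 (2751 to 3707, plus strand) had 3798, 6786 and 2588 normalized CPM in the f/f-labelled libraries and 15985, 16534 and 16358 in the Cre-labelled ones (log2 fold change 1.89, SE 0.43). The mRNA of mt-Nd2 (3914 to 4951, plus strand) had 1868, 4795 and 1188 against 12620.1, 11119.6 and 13081 (log2 fold change 2.23, SE 0.54). The mt-Nd2 mRNA spread more widely than that of mt-Nd1 within both groups: its highest library exceeded its lowest 4.04-fold in the f/f-labelled libraries and 1.18-fold in the others, against 2.62-fold and 1.03-fold for mt-Nd1. The mRNA of mt-Nd4 (10167 to 11544, plus strand) had 2349.96, 3937 and 1252 normalized CPM against 10897, 11629.5 and 11291 (log2 fold change 2.17, SE 0.45). The mRNA of mt-Nd5 (11742 to 13565, plus strand) had 2537, 5484 and 1668 against 12854, 13714 and 13229.9 (log2 fold change 2.04, SE 0.48). In each of these 4 mRNAs f/f-labelled replicate 2 was the highest of its group and replicate 3 the lowest. The edgeR adjusted p was 0.0101 for mt-Nd1, 0.0126 for mt-Nd2, 0.00733 for mt-Nd4 and 0.0114 for mt-Nd5. Without f/f-labelled replicate 1 the calls of mt-Nd1, mt-Nd2, mt-Nd5 and also mt-Cytb were lost, with edgeR adjusted p of 0.0629, 0.0687, 0.0662 and 0.0705, the highest over all alternatives. Their log2 fold changes there were 1.80, 2.04, 1.90 and 1.99, close to those with all libraries. Without f/f-labelled replicate 2 the difference of mt-Nd2 was 8.14-fold in place of 4.69-fold, and that of mt-Nd5 6.39-fold in place of 4.11-fold.

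The 2 rRNAs differed as the mRNAs did. They are the RNA backbones of the small (mt-Rnr1, 70 to 1024, plus strand) and large (mt-Rnr2, 1094 to 2675, plus strand) subunits of the mitochondrial ribosome, and lie at the start of the shared strand. For mt-Rnr1 the levels were 226, 342 and 134 normalized CPM in the f/f-labelled libraries and 968, 973 and 859 in the Cre-labelled ones (3.99-fold, log2 fold change 2.00, SE 0.32, edgeR adjusted p = 0.00296). For mt-Rnr2 they were 324, 508 and 190.2 against 1496, 1312 and 1284 (log2 fold change 2.00, SE 0.35, edgeR adjusted p = 0.00368). Neither rRNA overlapped between groups, and both kept their call in all 15 alternatives, as did mt-Nd4. Mitochondrial rRNAs carry only short tails of adenosine, so in libraries selected for poly A+ RNA these are levels of captured RNA. The rRNAs made up 1.89%, 1.61% and 1.68% of the counts of the 9 in f/f-labelled replicates 1, 2 and 3, and 1.91%, 1.745% and 1.65% in Cre-labelled replicates 1, 2 and 3.

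The strand comparison set mt-Nd6 against the other mRNAs. It encodes another membrane-arm subunit of complex I and lies from 13552 to 14070 on the minus strand, between mt-Nd5 and mt-Cytb. It shares its last 14 bases with the last 14 of mt-Nd5, read on opposite strands. The ends of both transcripts are shown 5′ to 3′ from the GENCODE M21 transcripts (GRCm38, the assembly of mm10), with the shared bases in capitals, because reads across them belong to one strand or the other; the start of mt-Nd6 follows, with its first codon in capitals.
mt-Nd5, chrM:13521-13565, plus strand: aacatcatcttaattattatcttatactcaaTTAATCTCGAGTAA
mt-Nd6, chrM:13552-13596, minus strand: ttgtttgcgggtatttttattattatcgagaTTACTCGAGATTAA
mt-Nd6, chrM:14026-14070, minus strand: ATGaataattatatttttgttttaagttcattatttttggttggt

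By count, mt-Nd6 was the scarcest of the 9 RNAs, with 214, 1322 and 156 reads in the f/f-labelled libraries and 4156, 3019 and 2108 in the Cre-labelled ones. As normalized CPM these were 7.86, 34.8 and 6.55 against 97.6, 72.9 and 80.4. The highest library of the first group was below the lowest of the second, but it stood far above the other pair of its group. The difference was 5.03-fold, the largest of the 9 (log2 fold change 2.33, SE 0.60, edgeR adjusted p = 0.0169). Without f/f-labelled replicate 2 it was 11.8-fold. The call was lost with no filter on low counts (adjusted p = 0.118) and without f/f-labelled replicate 1 or Cre-labelled replicate 1 (0.0586 and 0.0538), in a range from 9.4e-05 over alternatives. The log2 fold changes in those 3 fits were 2.33, 2.00 and 2.21. The setting that tells strands apart in the authors' counting is not given in the sources used here. Reads of the opposite strand in this gene therefore cannot be told apart from its own. As for the rRNAs, these are levels of RNA captured by poly A+ selection. How well mt-Nd6 was captured beside the other mRNAs was not tested, so capture and strand cannot be told apart in its low level.

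Whether mt-Nd6 moved more than the mRNAs of the other strand was tested by a ratio within each library, which needs no scaling between libraries. As a share of the counts of the 7 mRNAs, mt-Nd6 made up 0.0276% (95% exact Clopper-Pearson interval 0.0241 to 0.0316), 0.0670% (0.0635 to 0.0707) and 0.0344% (0.0292 to 0.0403) in f/f-labelled replicates 1, 2 and 3. In Cre-labelled replicates 1, 2 and 3 the shares were 0.0773% (0.0750 to 0.0797), 0.0567% (0.0547 to 0.0587) and 0.0630% (0.0603 to 0.0657). Of the f/f-labelled libraries, 2 lay below every library of the other label, while replicate 2 lay inside its range. These intervals cover counting error only. The log2 ratio of mt-Nd6 to the 6 other mRNAs was -11.29 ± 0.67 in the f/f-labelled libraries and -10.58 ± 0.23 in the others (SD, n = 3 each). The difference of 0.71 did not exceed the spread between libraries (two-sided exact permutation p = 0.3, where 0.1 is the smallest possible). It was 1.08 without f/f-labelled replicate 2, and 0.44 without f/f-labelled replicate 1.

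The log2 ratio of the 2 rRNAs to the same 6 mRNAs was -5.83 ± 0.12 in the f/f-labelled libraries and -5.80 ± 0.11 in the others, a difference of 0.04 (exact permutation p = 0.7), and its sign changed when f/f-labelled replicate 2 (-0.01) or Cre-labelled replicate 1 (-0.02) was left out. The log2 ratio of mt-Rnr2 to mt-Rnr1 was 0.53 ± 0.04 and 0.55 ± 0.10 (exact permutation p = 0.9). Neither difference was detectable beyond the spread of 3 libraries a group. Along the DNA, the log2 fold changes of the 8 genes of the shared strand were 2.00 at each rRNA, 1.89 at mt-Nd1, 2.23 at mt-Nd2, 1.77 at mt-Co1, 2.17 at mt-Nd4 and 2.04 at both mt-Nd5 and mt-Cytb. The standard errors ran from 0.32 to 0.54. They include spread between libraries that these 8 genes share, with f/f-labelled replicate 2 highest and replicate 3 lowest of that label. They therefore do not measure how far the genes differ from each other. Shares within each library, given below, compare the mRNAs directly.

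**Figure D2:**
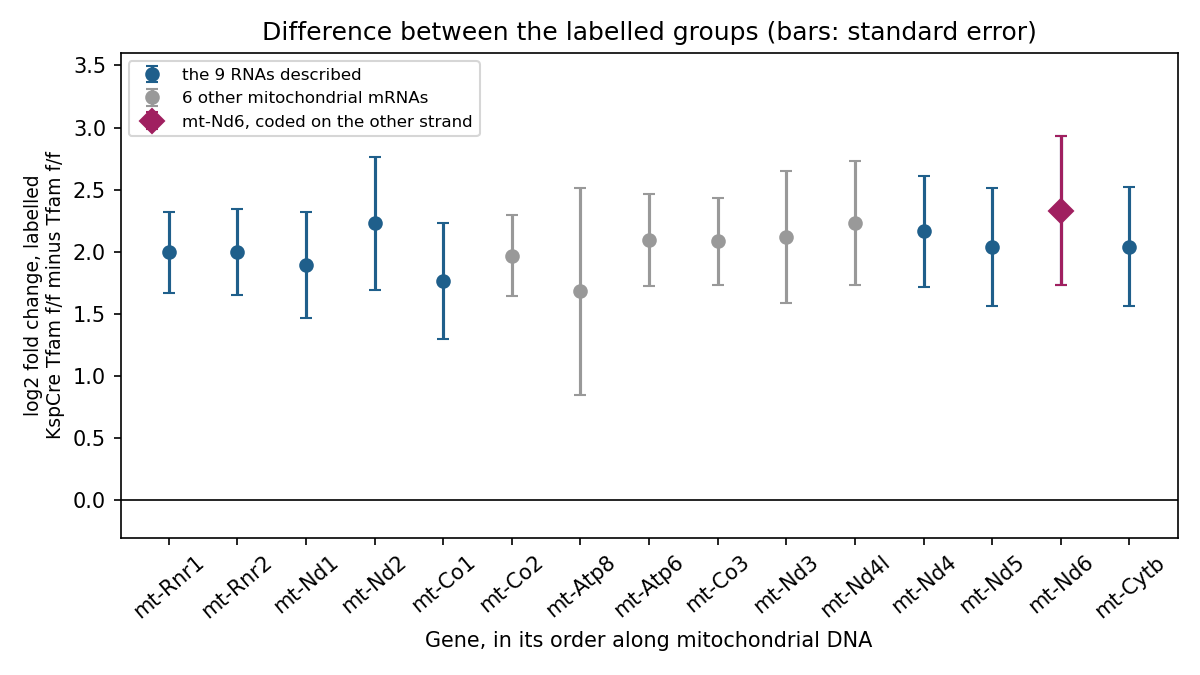
Log2 fold change between the labelled groups for the 9 RNAs (blue, and a diamond for mt-Nd6) and the 6 other mitochondrial mRNAs (grey), in gene order along mitochondrial DNA, with standard errors. All points lie between 1.68 (mt-Atp8) and 2.33 (mt-Nd6), with overlapping error bars. The bars include spread between libraries that the genes share, so their overlap does not compare genes with each other.

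**Figure D3:**
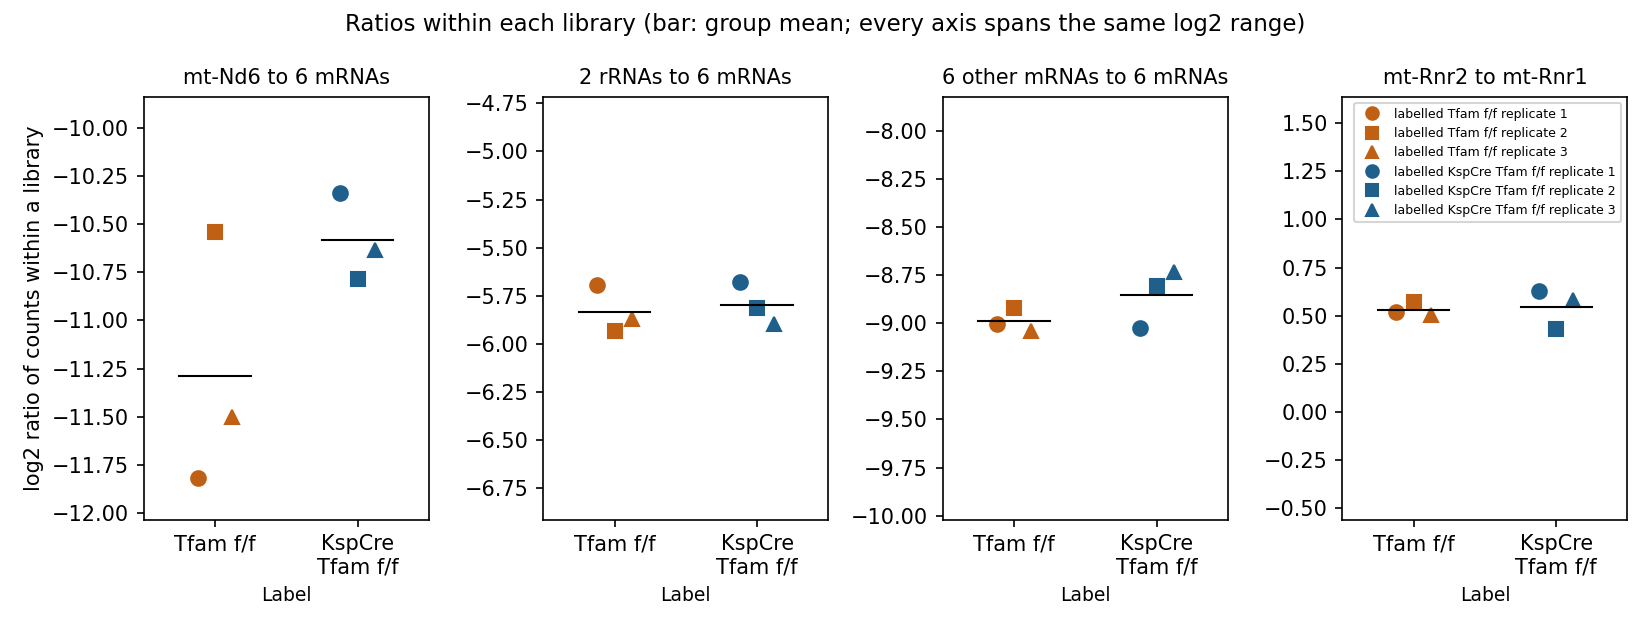
Log2 ratios of counts within each library, by label, with bars at group means and panels of equal log2 range. Only in the mt-Nd6 panel do libraries of one label stand far apart, with f/f-labelled replicates 1 and 3 at -11.8 and -11.5 and replicate 2 at -10.5, level with the libraries of the other label.

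The make-up of the mRNA counts was compared gene by gene. The mt-Co1 mRNA was 40.4%, 38.6% and 45.3% of the counts of the 7 mRNAs in the f/f-labelled libraries and 36.5%, 35.35% and 35.4% in the Cre-labelled ones. Its share was thus higher in every library of the first label, by 0.21 in log2. The mt-Nd1 share was also higher there, at 13.4%, 13.1% and 13.6% against 12.7%, 12.85% and 12.8%. The mt-Nd4 share was lower there in every library, at 8.26%, 7.58% and 6.58% against 8.63%, 9.04% and 8.84%. These 3 ratios reached the smallest p the design allows (exact permutation p = 0.1 each, 0.233 adjusted over the 7 ratios), so none passed. The shares of mt-Nd2, mt-Nd5, mt-Cytb and mt-Nd6 overlapped between labels (exact permutation p from 0.2 to 0.3, 0.3 adjusted over the 7). Within the first label, replicate 3 had the lowest share of mitochondrial counts, the highest mt-Co1 share and the lowest shares of mt-Nd2, mt-Nd4, mt-Nd5 and mt-Cytb.

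**Figure D4:**
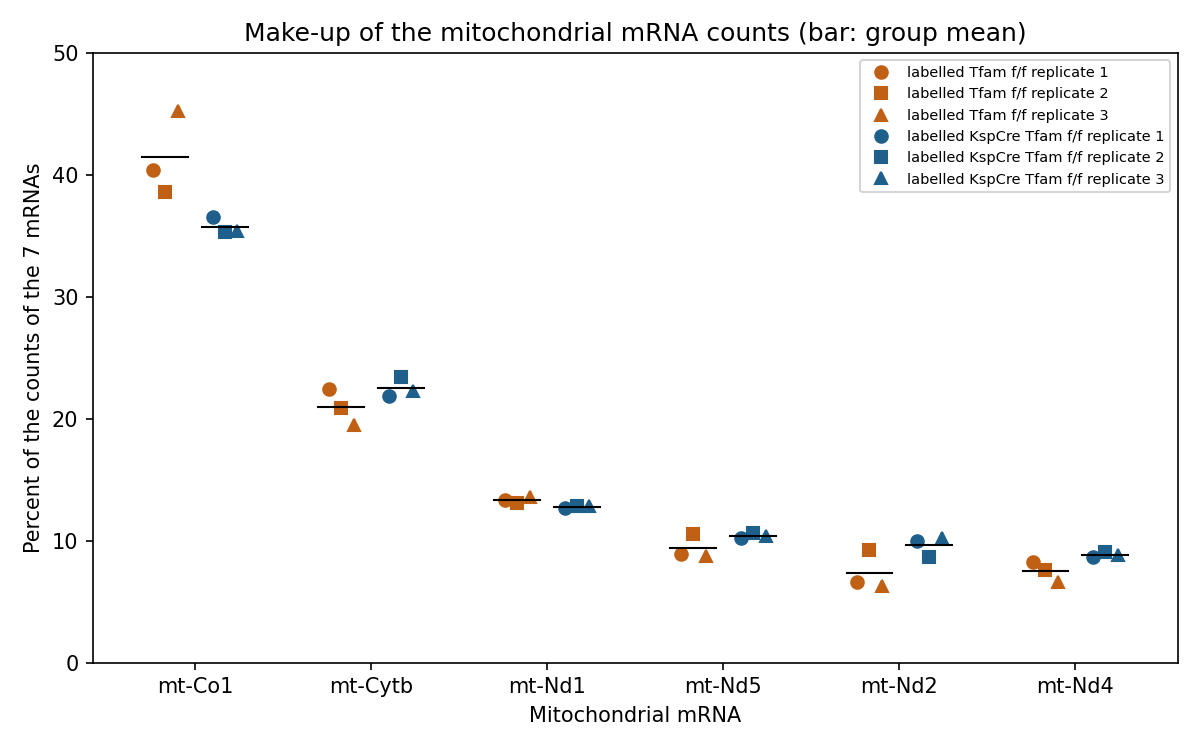
Percent of the counts of the 7 mRNAs held by each of the 6 mRNAs of the shared strand, per library, with bars at group means. The mt-Co1 share is higher in all 3 f/f-labelled libraries (38.6% to 45.3%) than in the Cre-labelled ones (35.35% to 36.5%).

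Levels per gene length kept 1 order in both labels. In the Cre-labelled libraries, the level per length was 29516 ± 312 normalized CPM per kilobase for mt-Co1, 25116 ± 1106 for mt-Cytb, 17024 ± 293 for mt-Nd1 and 11824 ± 988 for mt-Nd2 (SD, n = 3 each). It was 8180 ± 266 for mt-Nd4 and 7273 ± 236 for mt-Nd5. The rRNAs followed at 977 ± 67.5 for mt-Rnr1 and 862 ± 72.8 for mt-Rnr2, and mt-Nd6 was last at 161 ± 24.4. All neighbours in this order were separate except the rRNAs, whose ranges overlapped although mt-Rnr1 was above mt-Rnr2 in 3 of 3 libraries. In the f/f-labelled libraries the means fell in the same order, from 8665 ± 3856 for mt-Co1 to 31.6 ± 30.8 for mt-Nd6. There the neighbours overlapped in range except at the steps from mt-Nd5 to mt-Rnr1 and from mt-Rnr2 to mt-Nd6, and mt-Nd4 (1824 ± 980) was above mt-Nd5 (1771 ± 1097) in 1 of 3 libraries. Both mt-Nd4 and mt-Co1 hold stretches with an exact nuclear copy, and how far this lowers their levels was not tested. The order is that of RNA captured by poly A+ selection, and differences in capture between genes, mt-Nd6 included, were not tested.

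Copy status was measured by looking for each gene's sequence, window by window, among all annotated nuclear transcripts of GENCODE M21 on both strands. A read that matches a nuclear copy exactly aligns to more than one place, and the count files list reads with several alignments apart from the genes. At windows of 150 bases, the read length, no exact copy was found for mt-Nd1, mt-Nd2, mt-Nd5, mt-Nd6, mt-Cytb, mt-Rnr1 or mt-Rnr2, while 23.6% of the windows of mt-Co1 and 59.15% of those of mt-Nd4 had one. At windows of 50 bases these shares were 51.1% and 62.2%, and 8.19% for mt-Nd2, 7.61% for mt-Nd5 and 1.04% for mt-Rnr2. Nuclear sequence outside annotated transcripts was not searched. A run of 7 annotated copies lies on chromosome 1, minus strand, and those of mt-Nd4 and mt-Co1 are its outermost members. Shorter exact matches to mt-Co1 also lie in Gm13340 on chromosome 2 and Gm11512 on chromosome 11. The pseudogene Gm29216 (24615706 to 24616197) matches the last 492 bases of mt-Co1 with 6 differences. Gm28439 (24611535 to 24612410) matches the first 876 of the 1378 bases of mt-Nd4 with 0 differences. The start of the mt-Co1 match is shown with its copy, with the bases that differ in capitals, since these alone separate the genes there (T1056A, C1057T, A1059G, A1060G, C1062A and A1066T, from mt-Co1 to the copy, counted from the first base of mt-Co1). The line for mt-Nd4 shows where its copied stretch ends, with the bases past the end of Gm28439 in capitals.
mt-Co1, chrM:6381-6440, plus strand: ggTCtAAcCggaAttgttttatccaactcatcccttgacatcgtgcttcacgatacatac
Gm29216, chr1:24616138-24616197, minus strand: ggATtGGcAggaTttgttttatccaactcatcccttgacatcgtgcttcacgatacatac
mt-Nd4, chrM:11013-11072, plus strand: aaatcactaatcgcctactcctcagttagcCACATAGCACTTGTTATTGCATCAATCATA

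The 6 mitochondrial mRNAs outside the group of 9 were set beside them. For 5 of the 6, an annotated copy of almost the full length was found. They are mt-Co2 and mt-Co3 of complex IV, mt-Atp6 and mt-Atp8 of ATP synthase, and mt-Nd3 and mt-Nd4l of complex I. For 5 of them, 97.0% to 99.8% of the windows of 150 bases had an exact copy. For mt-Atp8, no window of 50, 100 or 150 bases had one among annotated transcripts. It lies between mt-Co2 and mt-Atp6, and its last bases (7927 to 7969) overlap the copied start of mt-Atp6. On chromosome 1 the copy of mt-Atp6 ends at 24614651 and that of mt-Co2 starts at 24614885. The sequence between them was not searched, so whether mt-Atp8 is copied there was not tested. The mt-Atp6 mRNA, for instance, runs only 3 bases (in capitals) past the end of its copy Gm10925, which matches it without a difference.
mt-Atp6, chrM:8563-8607, plus strand: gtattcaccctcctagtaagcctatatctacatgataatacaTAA
The 6 had few counts, 859 to 4071 in all per f/f-labelled library and 7853 to 11901 per Cre-labelled library. Of the 6, 5 were called higher in the Cre-labelled libraries, against 21.3% of all tested genes, and mt-Atp8 did not pass. The median log2 fold change was 2.09, against 2.04 for the 9. The mt-Co2 mRNA had 24.2, 38.2 and 13.7 normalized CPM against 87.6, 107 and 104.9 (log2 fold change 1.97, SE 0.33, edgeR adjusted p = 0.0035), and mt-Co3 17.8, 35.5 and 12.7 against 80.5, 98.3 and 102 (2.08, SE 0.35, edgeR adjusted p = 0.00356). The log2 fold changes of mt-Atp6, mt-Nd3 and mt-Nd4l were 2.10, 2.12 and 2.24, and mt-Atp8 had 0.294, 1.74 and 0.21 normalized CPM against 2.72, 0.821 and 4.24, with overlap. Within libraries, the log2 ratio of these 6 mRNAs (mt-Atp8 included) to the 6 described mRNAs of the shared strand was compared. It was -8.99 ± 0.06 in the f/f-labelled libraries and -8.85 ± 0.15 in the others. The difference was 0.13, with overlap between labels (exact permutation p = 0.3). Against mt-Nd1, mt-Nd2, mt-Nd5 and mt-Cytb alone it was 0.02 (exact permutation p = 0.9). The value was 0.22 without Cre-labelled replicate 1 and 0.07 without replicate 3 of that label.

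**Figure D5:**
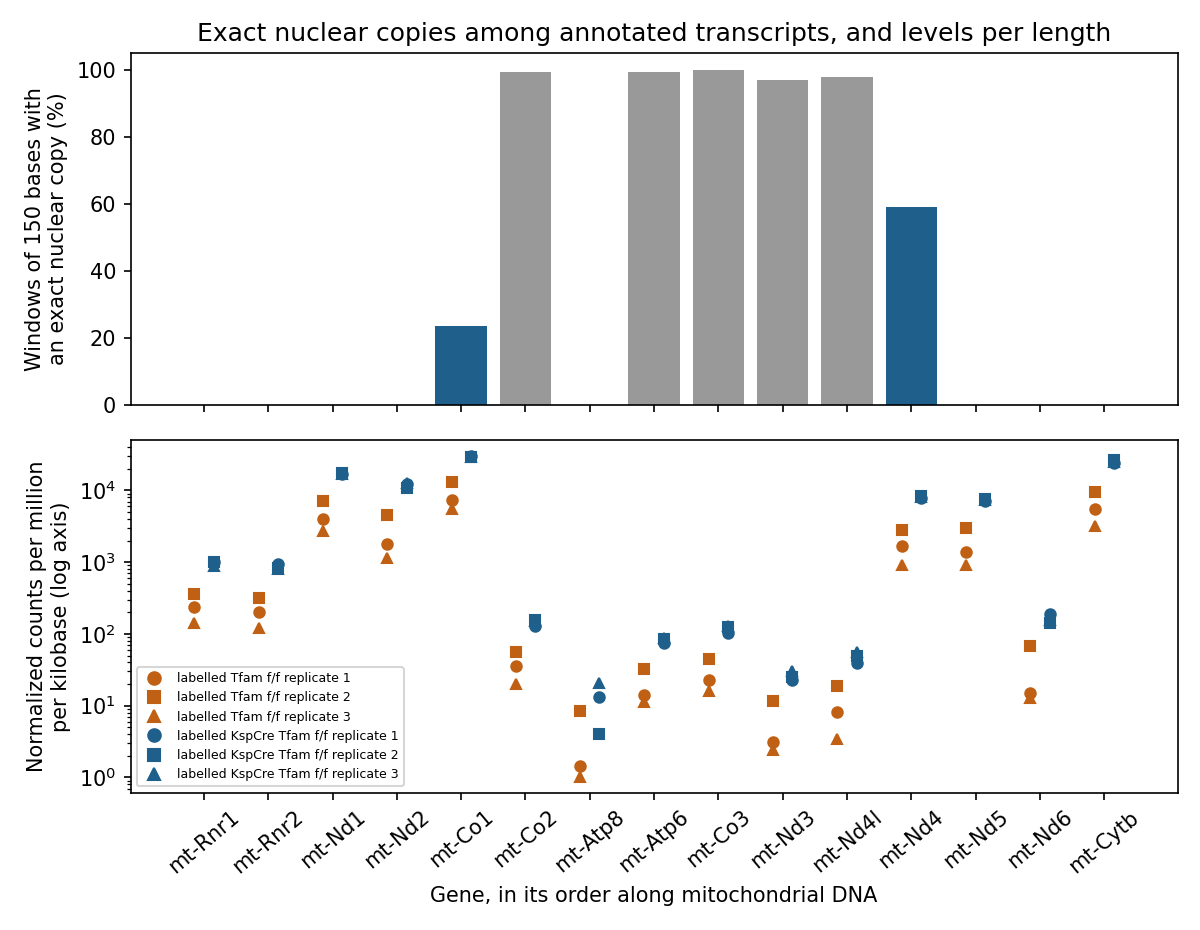
Top, percent of each gene's windows of 150 bases with an exact copy among annotated nuclear transcripts (blue, the 9 RNAs, and grey, the other mRNAs). The value of mt-Atp8 is 0, but nuclear sequence between annotated transcripts was not searched. Bottom, normalized CPM per kilobase (log axis) per library. The other mRNAs lie far below their neighbours of the same strand in every library, and the median log2 fold change between labels was 2.09 for the 6 other mRNAs and 2.04 for the 9 RNAs.

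Genes annotated on the nuclear copies had counts of their own. Of 15 annotated genes sharing at least 1 window of 50 bases with any of the 15 mitochondrial RNAs searched, 14 were in the count files and 12 passed the filter on low counts. Of these 12, 11 were called higher in the Cre-labelled libraries, against 21.3% of all tested genes. Their median log2 fold change was 2.15. All 7 on chromosome 1 were called higher. The 3 with the most counts were Gm13340 (RP23-407K8.3 in the count files; chromosome 2, 22588103 to 22589647), Gm10925 (RP23-8J15.3; chromosome 1, 24613974 to 24614651) and Gm29216 (RP23-8J15.1). Their log2 fold changes were 1.86 (SE 0.32), 2.12 (SE 0.45) and 1.76 (SE 0.26), with edgeR adjusted p of 0.00389, 0.00876 and 0.00237. Gm10925 had 577, 2285 and 393 reads in the f/f-labelled libraries and 6162, 5685 and 3786 in the others, or 217 to 281 reads for every 100 assigned to mt-Atp6. By contrast Gm29216 had 0.242 to 0.316 reads and Gm28439 0.267 to 0.469 reads for every 100 assigned to mt-Co1 and mt-Nd4. Counts of a copy and of its mitochondrial gene cannot be told apart where the sequence is the same, so the 7 genes on chromosome 1 and the 5 mRNAs copied almost in full are uncertain as single genes.

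The tRNAs between the members had almost no counts. Of 22 mitochondrial tRNA genes, 13 had 0 counts in all 6 libraries and 5 passed the filter. Of these 5, 4 were called higher in the Cre-labelled libraries, against 21.3% of all tested genes. The 3 with the most counts were mt-Tw, mt-Tt and mt-Tm. For mt-Tw, which lies at the end of mt-Nd2, the counts were 7, 35 and 4 against 207, 115 and 63 (log2 fold change 2.80, SE 0.57, edgeR adjusted p = 0.00702). For mt-Tt, after mt-Cytb, they were 47, 73 and 20 against 130, 70 and 58, with overlap in CPM (log2 fold change 0.62, SE 0.36, edgeR adjusted p = 0.194). For mt-Tm the levels were 0.147, 1.03 and 0 normalized CPM against 2.47, 2.51 and 2.06 (edgeR adjusted p = 0.0423). Single tRNAs are shorter than the reads.

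Nuclear genes that copy and transcribe mitochondrial DNA, or cut, tail and turn over its RNAs, were taken from 5 lists. Of these, 55 genes were tested: 13 (23.6%) were called higher in the Cre-labelled libraries, close to the 21.3% of all tested genes, and 2 (3.64%) lower, against 24.9% of all. Their median log2 fold change was 0.14. Of 9 transcription genes, 5 were higher. Beside Tfam these were Tfb2m, the initiation factor that opens the promoter (28.1 ± 4.197 against 45.1 ± 2.81 normalized CPM, SD, n = 3 each; 1.60-fold), Tefm, an elongation factor (1.28-fold), Mterf3 (1.31-fold) and Mrpl12, a mitochondrial ribosomal protein (means of 113 and 159 normalized CPM, log2 fold change 0.50), which was named after its values were seen. Polrmt, the RNA polymerase itself, also named after its values were seen, had means of 38.2 and 43.4 normalized CPM and did not pass (edgeR adjusted p = 0.178). Of 9 replication genes, Top1mt, a topoisomerase (1.54-fold), and Dna2, a nuclease (1.34-fold), were higher. Primpol, a primase-polymerase, was 1.71-fold lower and Rnaseh1, which removes RNA from RNA-DNA hybrids, 1.32-fold lower, and 5 did not pass.

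Of 15 genes for cleavage, polyadenylation and stability, 4 were higher and 11 did not pass. The 4 were Grsf1, an RNA-granule protein (135 ± 24.8 against 214 ± 4.26 normalized CPM, 1.59-fold), Fastkd1 (1.32-fold), Trmt10c, a subunit of the mitochondrial RNase P (1.44-fold), and the gene for its nuclease subunit Prorp, listed as RP24-93H15.3 in the count files (1.23-fold). Of 4 RNA decay genes, 0 passed with edgeR, 0 had an unadjusted p under 0.05, and 0 passed with DESeq2 or limma voom. Their log2 fold changes were 0.07 to 0.19, and these tests, all on the same libraries, could miss differences of that size. Pnpt1, a polynucleotide phosphorylase, had 34.8 ± 3.50 against 39.6 ± 2.58. Of 18 genes for rRNA modification and ribosome assembly, Fastkd2 (1.54-fold) and Mtg2, a GTPase (1.26-fold), were higher and 16 did not pass. With total counts in place of scaling factors, which shifted the median of all genes from -0.03 to -0.46 in log2, 1 of the 55 was called higher and 25 lower. That shift applies to all genes alike, and the log2 fold changes of Tfam (0.69), Tfb2m (0.26), Grsf1 (0.25), Fastkd2 (0.20), Top1mt (0.20) and Trmt10c (0.11) stayed above 0. Those of Tefm, Mterf3, Dna2, Fastkd1, RP24-93H15.3, Pnpt1 and Mtg2 fell below 0, though all 7 lay above the shifted median. The 9 mitochondrial RNAs all stayed called higher under that scaling.

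The nuclear genes, predicted ones left out, whose pattern over the 6 libraries was most like that of the 6 shared-strand mRNAs were sought among 5897 genes whose log2 CPM averaged 5 or more. Likeness was the root mean square difference of log2 CPM, each centred on its mean over the 6 libraries. The nearest were Car4, a carbonic anhydrase (0.08), Gas2 (0.09), Gpm6a (0.10), Mgat3 (0.10) and Sepp1 (0.12). On the same measure the 9 RNAs themselves ranged from 0.06 for mt-Nd5 and mt-Cytb to 0.22 for mt-Nd2 and 0.48 for mt-Nd6. The pattern is the mean of the 6 shared-strand mRNAs, so the closeness of these 6 to it is partly built in. Car4 had 44.4, 70.8 and 25.2 normalized CPM in the f/f-labelled libraries and 194, 194 and 203 in the Cre-labelled ones. The 5 genes were chosen by their pattern over these same 6 libraries, so their likeness in it is no separate result.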

How the data were processed

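RNA of whole kidney was sequenced in 6 libraries, 3 for each label. The authors deposited, per library, raw read counts for 54146 genes with 5 summary lines. Per the submitters' processing notes, FastQC, Trim Galore, STAR 2.4.1d, HTSeq 0.11.0 and build mm10 were used; not given in the sources used here: annotation release and strand setting. Summary lines held 16.0% to 20.4% of reads and were left out.

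Groups follow the labels. Genes passing edgeR's filterByExpr (minimum count 10) were scaled by TMM and tested with edgeR 4.0.16 (robust quasi-likelihood, Benjamini-Hochberg threshold 0.05). In simulated counts, 67, 67 and 66 of 17308 genes were changed 1.5-fold, 2-fold and 4-fold. This test called 10.4%, 58.2% and 86.4% of them. In the data 46.2% of genes were called, a far larger part than was changed in the simulation. Since the adjustment depends on that part, these rates are not those of the test on the data. A gene that did not pass may still differ, and in the simulation smaller changes were missed more often. Normalized CPM use the TMM library sizes. Ratios within libraries were tested by two-sided exact permutation. Copies were exact windows of 50, 100 and 150 bases against GENCODE M21 transcripts, and 54079 of the 54146 gene IDs were in that release. Alternatives were other scalings and filters, DESeq2 1.42.0, limma voom 3.58.1, a replicate block and leaving out each library.

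The members and lists were chosen with earlier results of these data known. Named genes are the 9 members, up to 4 per list, the 3 tRNAs and 3 copies with the most counts, and the 5 genes of most similar pattern; others are said to be chosen after their values were seen.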

Additional observations from a re-analysis of the deposited data

Results flagged for a closer look

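Reads aligned to several places, which the comparisons above do not use, made up 10.59% ± 0.183 of all reads in the Cre-labelled libraries and 5.73% ± 0.895 in the f/f-labelled ones (SD, n = 3 each). The ranges were 10.4% to 10.8% and 5.06% to 6.74%. Which genes these reads came from was not tested.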

How the results depend on the processing

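All 9 members stayed higher in the Cre-labelled libraries in all 15 alternatives; the number called was 3 to 9 when a library was left out, with 3 only without f/f-labelled replicate 1, where their log2 fold changes were 1.68 to 2.13. With total counts, 1680 genes of the whole table were called higher and 8519 lower (3690 and 4310 as reported). Of the genes called as reported, 1514 were at least 2-fold higher and 2287 at least 2-fold lower. Leaving out a library gave 2276 to 4652 higher and 2822 to 4942 lower. For the 5 nuclear lists, with 13 higher and 2 lower, total counts gave 1 and 25, and leaving out a library gave 5 to 19 higher and 1 to 3 lower. No filter and limma voom each gave 1 lower. With total counts the log2 fold changes of Tefm (-0.0668), Mterf3 (-0.0401), Dna2 (-0.0015), Fastkd1 (-0.0268), RP24-93H15.3 (-0.13), Pnpt1 (-0.24) and Mtg2 (-0.10) changed sign, while the median of all genes moved to -0.46. The rRNA to mRNA ratio changed sign with mean log2 counts (-0.0721) and ran from -0.0224 to 0.106 when a library was left out (-0.01 without f/f-labelled replicate 2). The ratio of mt-Rnr2 to mt-Rnr1 ran from -0.0261 to 0.0726 (-0.0017 without Cre-labelled replicate 3). The causes were not tested.

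Deviations of same-numbered libraries of the 2 labels had correlations of -0.17, -0.07 and -0.07, and those of differently numbered libraries -0.06 to 0.19. These values show no pairing by number, but cannot show that same-numbered libraries have nothing else in common. With the replicate block, 9 of 9 members were called, and 8 nuclear list genes were higher and 1 lower; the share of counts in the 9 gave an exact sign-flip p of 0.25, the smallest that 3 pairs allow. Those paired tests of the ratios were added after seeing the data. Few counts limit mt-Nd6, mt-Atp8 and the tRNAs most, and 3 libraries a label limit every ratio.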
